A study of Mus musculus with 4 samples.

Results

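The genes described here are 10 transcription factor genes of kidney development, chosen by name as rows of the deposited expression table: Pax2, Pax8, Sox4, Sox9, Sox11, Lhx1, Sall1, Six2, Osr1 and Cited1. All 10 were found among its 32176 rows. Expression was measured by RNA-seq of oligo dT-selected RNA from whole mouse kidney, in 2 libraries of a mouse model of autosomal dominant polycystic kidney disease (ADPKD), in which tubules swell into cysts, and in 2 wild-type (WT) libraries. The ADPKD genotype is given as Pkd1fl/fl; Cre/Esr1+, a floxed polycystin-1 gene with a Cre recombinase that tamoxifen switches on, and the WT genotype as wildtype. Per the labels' protocols tamoxifen was injected at 10 mg/kg on postnatal day 10, a text that all 4 samples carry, WT included. The labels name neither the promoter that drives Cre nor the cells in which it acts, and give no age at collection, sex or litter. Whether the libraries of a group came from different animals is not stated in the labels. P-values here reflect only the spread between these libraries, that of each gene joined with that of other genes. In WT that spread may be technical, while sex-linked genes, given below, set the ADPKD libraries apart from each other.

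These genes act in succession when nephrons form. Osr1 marks the intermediate mesoderm from which the kidney arises. Pax2 and Pax8, related paired-domain factors, and Lhx1, a LIM homeodomain factor, specify the nephric duct and later the young nephron. Six2 holds nephron progenitors in a self-renewing state, Cited1 marks the least committed of them, and the zinc finger factor Sall1 is needed to keep them. Sox9 is made at the tips of the branching ureteric bud, and Sox4 and Sox11 are closely related Sox factors of embryonic progenitors. In mice nephron formation ends within days after birth, and Sox9 is known to come back in tubule cells after injury.

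Kidneys with ADPKD held more Sox9 and Sox4 RNA than WT kidneys, and these were the members that rose. Values are in FPKM, a read count divided by exon length and by library size, and each library had between 18001308 and 19955120 assigned reads. The 8 members that averaged 0.5 FPKM or more over the 4 libraries were tested. Among these 2 rose, 0 fell and 6 did not pass the test, which was limma on log2(FPKM + 1) with Benjamini-Hochberg adjustment over all 17001 genes tested and a call at an adjusted p below 0.05. Of all genes tested, 9.43% rose, 4.78% fell and 14.2% were called in either direction. Sox9 and Sox11 had a WT mean under 0.5 FPKM and reached the filter only through ADPKD, so the number that rose is a description of members partly admitted by being high there. An unadjusted p under 0.05 was found for 3 higher members and 1 lower, Lhx1, which voom on recovered reads also called. Of all 17001 genes tested, 5878 had an unadjusted limma p under 0.05. Counts at that threshold, here and for the lists below, are to be read beside that share. With 2 libraries per group the smallest two-sided p of an exact permutation test is 0.333, and no such p is given. The split of all calls depended on scaling, with 1604 genes higher and 813 lower as deposited, 817 and 985 after median-of-ratios scaling, and 999 and 1102 after quantile normalization. These scalings moved the median over all genes from 0.18 to -0.000134 and -0.01, and changes are also given relative to it where that matters.

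The libraries also differed beyond their labels. For Xist, transcribed from the inactive X chromosome of females, ADPKD replicate 2 gave 29.6 FPKM while the others gave 0.0217 FPKM or less. The Y-linked gene Ddx3y was at 0.0482 FPKM in that library and at 8.46 FPKM or more in the others. In both genes ADPKD replicate 2 had the pattern of a female and the other libraries that of males. The ADPKD libraries are thus not repeats of the same animal. Sex differed within ADPKD and between ADPKD replicate 2 and WT, and its part in the values was not tested. In these bulk samples fewer cells of a type and less RNA per cell cannot be told apart.

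Promoter windows are shown for 3 genes whose values the results turn on: Sox4, which rose, its relative Sox11, and Lhx1, whose start lies beside that of another gene. The windows are those of RefSeq on GRCm38.p6, from 250 bases before to 50 bases after the RefSeq start, and 8 of the 10 members had at least 1. The RefSeq start can differ from that of the deposited gene table. For Sox11 the whole window lies upstream of the deposited span, which starts at 27342574 on the minus strand. Those of Sox4 (chr13:28953650-28953949, minus strand) and Sox11 (chr12:27342669-27342968, minus strand) are printed with each CCAAT box, read on either strand, in capitals.
Sox4: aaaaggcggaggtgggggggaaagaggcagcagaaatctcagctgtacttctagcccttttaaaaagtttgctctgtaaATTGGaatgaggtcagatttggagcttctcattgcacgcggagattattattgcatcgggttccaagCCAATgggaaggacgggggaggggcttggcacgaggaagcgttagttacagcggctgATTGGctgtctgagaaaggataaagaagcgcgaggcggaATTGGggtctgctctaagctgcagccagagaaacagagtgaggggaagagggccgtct
Sox11: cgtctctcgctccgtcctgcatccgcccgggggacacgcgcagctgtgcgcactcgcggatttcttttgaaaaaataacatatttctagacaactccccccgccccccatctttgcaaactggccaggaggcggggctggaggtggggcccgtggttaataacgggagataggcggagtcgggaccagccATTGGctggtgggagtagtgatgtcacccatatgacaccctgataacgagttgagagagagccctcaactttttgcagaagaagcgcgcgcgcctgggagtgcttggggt

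The Sox4 window held 4 CCAAT boxes and the Sox11 window 1. A CCAAT box lay in 37.4% of all 32851 promoter windows of that length, so holding at least 1 is common. The AP-1 element TGANTCA, searched on both strands, was in 0 of the 14 windows of the members and in 7.81% of all windows. The GC box GGGCGG was in 8 of the 14 windows, from 6 members, and in 35.7% of all windows. These are matches of letters in a short window and say nothing of binding.

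The Lhx1 window (chr11:84525485-84525784, minus strand) has in capitals the 124 bases between the start of Lhx1 and that of Lhx1os, a gene read in the opposite direction.
Lhx1: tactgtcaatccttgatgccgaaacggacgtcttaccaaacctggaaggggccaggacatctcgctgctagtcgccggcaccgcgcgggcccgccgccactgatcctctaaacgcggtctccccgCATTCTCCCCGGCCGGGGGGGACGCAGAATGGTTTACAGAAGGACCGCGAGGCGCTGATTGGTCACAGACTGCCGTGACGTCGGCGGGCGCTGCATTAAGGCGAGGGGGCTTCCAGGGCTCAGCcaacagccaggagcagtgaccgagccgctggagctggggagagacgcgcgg

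**Figure D1:**
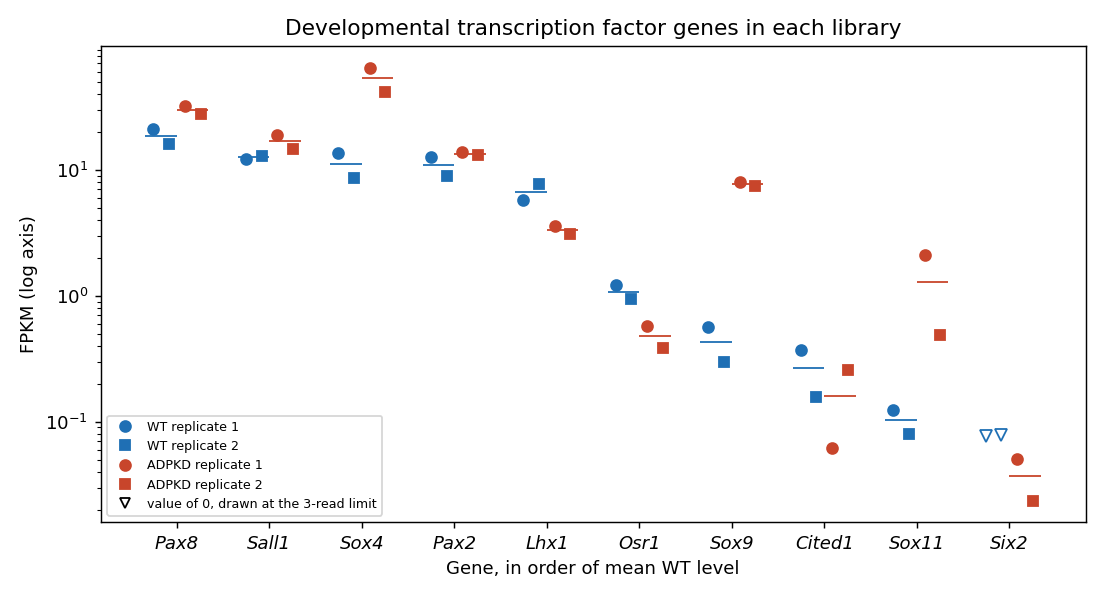
FPKM of the 10 members in each library on a log axis, in order of mean WT level; horizontal lines are group means and open triangles are values of 0 drawn at the limit that 0 reads allow. Sox9 sits at 0.296 and 0.566 FPKM in WT against 7.47 and 8.08 FPKM in ADPKD, while Six2 lies at or under the limit in every library.

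Sox9 (chromosome 11, 112782224 to 112787760 on GRCm38, 3 exon blocks) showed the largest difference among the members. It stood at 0.566 FPKM in WT replicate 1 and 0.296 FPKM in WT replicate 2, against 8.08 and 7.47 FPKM in ADPKD replicates 1 and 2. Both ADPKD libraries lay far above both WT libraries and close to each other. Behind these values were 43 and 22 reads in WT and 620 and 616 reads in ADPKD. The group means were 0.431 ± 0.191 and 7.77 ± 0.433 FPKM (SD, n = 2), a ratio of 18.0. On the log2(FPKM + 1) scale the difference was 2.62, with an SE of 0.19 and a limma adjusted p = 0.0164. That scale understates the change of a gene this low in WT: with a pseudocount of 0.1 the log2 fold change was 3.94, and with voom on recovered reads it was 4.22. Of all genes tested, 1.09% had a higher log2 fold change. Sox9 reached the filter only through ADPKD, so this share and the adjusted p describe a gene admitted by being high there. In WT replicates 1 and 2, 49.8% and 55.8% of all listed genes were above Sox9 in level, and in both ADPKD libraries 21.0% were. Without ADPKD replicate 2 the log2 fold change was 2.67 and the adjusted p = 0.0662, in a fit that called 0 of all genes (5039 at an unadjusted p under 0.05). With no filter on low values the adjusted p was 0.0667.

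Sox4 (chromosome 13, 28948919 to 28953713, a single exon block) rose as well and became the highest member in ADPKD. It measured 13.7 and 8.60 FPKM in WT replicates 1 and 2 against 64.8 and 41.5 FPKM in ADPKD replicates 1 and 2. The groups did not overlap, and replicates differed 1.59-fold in WT and 1.56-fold in ADPKD. Its means were 11.1 ± 3.59 and 53.2 ± 16.5 FPKM (SD, n = 2), a ratio of 4.77, with a log2 fold change of 2.16 (SE 0.32, adjusted p = 0.0288). The Sox4 call was lost without WT replicate 2 (adjusted p = 0.0719), without ADPKD replicate 1 (0.0854), without ADPKD replicate 2 (0.0843) and with no filter (0.0821). Its log2 fold change ranged from 1.84 to 2.47 over all 11 alternatives.

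Sox11 (chromosome 12, 27334264 to 27342574, a single exon block) was nearly silent in WT kidney. It measured 0.124 and 0.0802 FPKM in WT replicates 1 and 2, from 19 and 12 reads. In ADPKD replicates 1 and 2 it measured 2.09 and 0.488 FPKM, from 323 and 81 reads. Both ADPKD libraries were above both WT libraries but differed 4.29-fold from each other. The log2 fold change of 0.96 (SE 0.39, adjusted p = 0.167) did not pass the test, with a 95% interval of -0.08 to 2.0. It was 3.27 with voom on recovered reads and 2.50 with a pseudocount of 0.1, also without a call. Without ADPKD replicate 1 Sox11 was under the filter. Sox4 exceeded Sox11 by 110-fold and 107-fold in WT replicates 1 and 2, and by 31.0-fold and 85.0-fold in ADPKD replicates 1 and 2. ADPKD replicate 1 also stood apart in Krt5 and in markers of fat. Krt5, a basal keratin on the urothelial list, was at 49.9 FPKM there and at 1.09 to 3.54 FPKM in the others. Adipoq, an adipocyte hormone, was at 3.86 FPKM there and at or under 0.197 FPKM in the others. The summed level of the 5 urothelial markers was 86.0 FPKM in ADPKD replicate 1, 4.26 FPKM in ADPKD replicate 2 and 33.9 and 23.6 FPKM in WT. Krt5 made up most of the sum in ADPKD replicate 1. Upk1a (5.76 FPKM) and Upk2 (4.68 FPKM) lay between the WT values there, and Upk1b (12.5 FPKM) and Upk3a (13.1 FPKM) above them. In ADPKD replicate 2 each of these uroplakin genes was lower than in every other library. For 3 adipocyte markers the summed level was 8.04 FPKM in ADPKD replicate 1, 1.17 FPKM in ADPKD replicate 2 and 0.613 and 0.0838 FPKM in WT. The part of such tissue in the Sox11 values was not tested.

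Among the factors that pattern the nephron, both Pax genes were well expressed in every library, and neither passed the test. Pax8 (chromosome 2, 24420560 to 24475599) measured 21.1 and 16.1 FPKM in WT against 31.8 and 27.7 FPKM in ADPKD replicates 1 and 2. It was the highest member in both WT libraries and second to Sox4 in both ADPKD libraries. The group means were 18.6 ± 3.53 and 29.8 ± 2.93 FPKM (SD, n = 2), and the log2 fold change of 0.66 (SE 0.19, adjusted p = 0.0905) did not pass the test, with a 95% interval of 0.15 to 1.17. Exons of Gm13415, a gene on the opposite strand, cover 6.06% of the Pax8 exon length, and the counting did not use strand. Pax2 (chromosome 19, 44756045 to 44837871) measured 12.7 and 8.92 FPKM in WT against 13.9 and 13.1 FPKM in ADPKD. The groups did not overlap, but WT replicate 1 and ADPKD replicate 2 differed by little. The difference on the log2 scale was 0.31 (SE 0.21, adjusted p = 0.355), with a 95% interval of -0.24 to 0.86. Pax8 exceeded Pax2 by 1.66-fold and 1.80-fold in WT and by 2.29-fold and 2.12-fold in ADPKD.

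Sall1 (chromosome 8, 89027235 to 89044162), the progenitor zinc finger gene, was well expressed in all 4 libraries. It measured 12.2 and 12.9 FPKM in WT against 19.0 and 14.7 FPKM in ADPKD. Its log2 fold change of 0.39 (SE 0.18, adjusted p = 0.208) did not pass the test, with a 95% interval of -0.09 to 0.87. Relative to the median of all genes, the log2 fold changes were 0.48 for Pax8, 0.21 for Sall1 and 0.13 for Pax2. After median-of-ratios scaling, which brought the median of all genes to -0.000134, they were 0.43, 0.16 and 0.09.

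**Figure D2:**
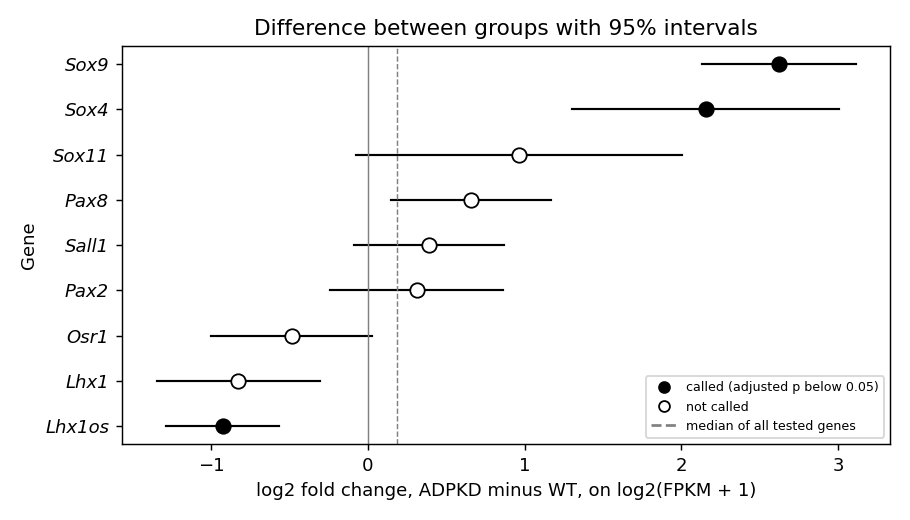
Log2 fold change of the 8 tested members and of Lhx1os (points) with 95% intervals (lines), on the log2(FPKM + 1) scale; filled points were called, and the dashed line is the median of all genes tested, 0.18. Sox9 at 2.62 and Sox4 at 2.16 stand to the right of the other members, and Lhx1 at -0.83 and Lhx1os at -0.93 to the left.

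Lhx1 and Osr1 were lower in both ADPKD libraries, but neither passed the test. Lhx1 (chromosome 11, 84518284 to 84525535) measured 5.78 and 7.65 FPKM in WT against 3.57 and 3.08 FPKM in ADPKD replicates 1 and 2. The groups did not overlap, and the WT mean was 2.02 times the ADPKD mean. The difference on the log2 scale was -0.83 (SE 0.20, adjusted p = 0.0612), with a 95% interval of -1.35 to -0.31. Lhx1 was called with median-of-ratios scaling (-1.03, adjusted p = 0.0476), quantile normalization (-1.07, 0.0382) and voom on recovered reads (-1.0, 0.0488), in a range of adjusted p over all 11 alternatives of 0.0382 to 0.297. Osr1 (chromosome 12, 9570116 to 9581500) measured 1.21 and 0.941 FPKM in WT, from 46 and 35 reads. In ADPKD it measured 0.574 and 0.388 FPKM, from 22 and 16 reads. Its log2 fold change of -0.49 (SE 0.19, adjusted p = 0.16) had a 95% interval of -1.0 to 0.03, and was -1.16 with voom on recovered reads.

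Lhx1os, which starts 125 bases from the start of Lhx1 and runs the other way, fell. It measured 24.0 FPKM in both WT libraries against 12.3 and 11.9 FPKM in ADPKD replicates 1 and 2, from 308 and 301 reads in WT and 160 and 166 in ADPKD. Replicates were nearly equal and the groups were far apart. The difference on the log2 scale was -0.93 (SE 0.14, adjusted p = 0.0282), and the call was lost when any 1 library was left out (adjusted p = 0.0787 to 0.122) and with no filter (0.0682). The deposited gene table gives Lhx1 and Lhx1os no shared exon base. The next gene on the other side of Lhx1, Aatf, an apoptosis antagonist 4762 bases away, measured 10.2 and 8.52 FPKM in WT against 9.43 and 8.94 FPKM in ADPKD (log2 fold change -0.02, SE 0.16, adjusted p = 0.95). The 3 genes within 20 kb of Pax2 with a mean of at least 0.5 FPKM, namely Gm35610, Gm20395 and 1700039E22Rik, had log2 fold changes of 0.13, -0.02 and 0.00 and did not pass the test.

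**Figure D3:**
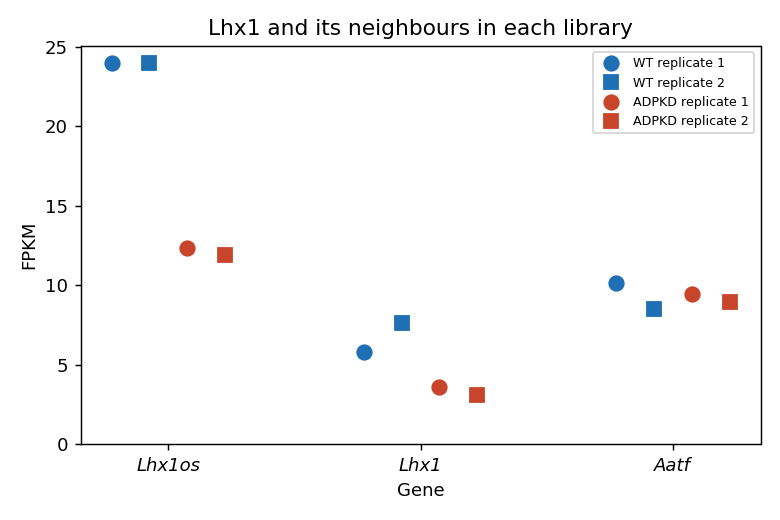
FPKM of Lhx1os, Lhx1 and Aatf in each library, on an axis that starts at 0. Lhx1os lies at 24.0 FPKM in WT and near 12 FPKM in ADPKD, Lhx1 is lower in both ADPKD libraries, and Aatf overlaps between groups.

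Of 6 markers of the distal nephron 3 fell. Over all genes tested 4.78% fell, to be read beside each count here. The summed level of 3 thick ascending limb markers was 834 and 1150 FPKM in WT and 530 and 320 FPKM in ADPKD, and 1 of them, Slc12a1, the sodium, potassium and chloride cotransporter, fell. Umod, which makes up most of that sum, did not pass the test (-1.15, adjusted p = 0.0859), nor did Cldn16, a tight junction gene, at 10.7 and 7.34 FPKM in WT against 13.9 and 11.1 FPKM in ADPKD (0.45, adjusted p = 0.252). The 3 distal convoluted tubule markers summed to 123 and 116 FPKM in WT and 36.0 and 30.1 FPKM in ADPKD, and Pvalb and Slc12a3 fell. Trpm6, a magnesium channel gene, measured 2.71 and 2.87 FPKM in WT against 3.38 and 6.75 FPKM in ADPKD (0.62, adjusted p = 0.237). Of 7 proximal tubule markers 5 fell (Cubn, Lrp2, Slc34a1, Slc22a6 and Slc22a8), with sums of 2427 and 2433 FPKM in WT and 797 and 681 FPKM in ADPKD. None of these markers was at 0 in all 4 libraries. Their part in the lower Lhx1, Lhx1os and Osr1 values was not tested.

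Six2 and Cited1, both genes of nephron progenitors, were close to silent in all 4 libraries, unlike Sall1. Six2 (chromosome 17, 85684277 to 85688274) was at 0 in both WT libraries and had 2 reads and 1 read in ADPKD replicates 1 and 2. Since 0 reads allow a true level of up to 3, or 0.0709 to 0.0786 FPKM for Six2, all values were under that limit and a difference was not detectable at this depth. Cited1 (chromosome X, 102247381 to 102252181) had 12 and 5 reads in WT and 2 and 9 reads in ADPKD, or 0.372, 0.158, 0.0614 and 0.257 FPKM, and its groups overlapped. Both genes were under the filter and were not tested. Groups did not overlap for all 8 members tested, and over all genes tested this held for 64.6%.

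The order of levels, which FPKM allows since it is per length, differed between the groups. In both WT libraries Pax8 came first, followed by Sox4, Sall1 and Pax2 in an order that changed between replicates, with means of 11.1, 12.5 and 10.8 FPKM that do not differ beyond their spread. Lhx1, Osr1, Sox9, Cited1, Sox11 and Six2 followed in both. In both ADPKD libraries the order was Sox4, Pax8, Sall1, Pax2, Sox9, Lhx1, Sox11, Osr1, Cited1 and Six2. Sox9 thus stood below Osr1 in both WT libraries and above Lhx1 in both ADPKD libraries.

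By a rule of likeness, the genes whose log2 profiles over the 4 libraries lay nearest to that of Sox9, each centred on its own mean, were Tmsb10, F2rl1 and Cdh3, at Euclidean distances of 0.09, 0.11 and 0.13. Tmsb10 encodes an actin-binding thymosin, and measured 52.8 and 41.4 FPKM in WT and 314 and 301 FPKM in ADPKD. F2rl1 encodes a protease-activated receptor and Cdh3 P-cadherin. Nearest to Sox4 were Plet1, Cd276 and Myof, at 0.12, 0.23 and 0.25. Plet1, an epithelial surface protein gene, measured 20.6 and 13.0 FPKM in WT and 104.9 and 61.4 FPKM in ADPKD. With 4 libraries many genes can share a profile, so this is a description.

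Among paralogs of the members, Sox18 fell while Sox9 and Sox4 rose. Of 41 paralogs 29 were listed in the table, 14 were tested, 0 rose and 1 fell, with a median log2 fold change of 0.25. Over all genes tested 9.43% rose and 4.78% fell. At an unadjusted p under 0.05, 2 were higher and 2 lower. Sox18, a factor of blood and lymph vessel endothelium, measured 9.74 and 9.98 FPKM in WT against 3.92 and 4.76 FPKM in ADPKD replicates 1 and 2. The difference on the log2 scale was -1.03 (SE 0.16, adjusted p = 0.0313), and the call was lost when any 1 library was left out. Sox17, its relative in endothelium, measured 2.67 and 2.89 FPKM in WT against 1.61 and 0.735 FPKM in ADPKD (adjusted p = 0.101). The 6 endothelial markers summed to 41.7 and 44.1 FPKM in WT and 20.4 and 32.9 FPKM in ADPKD, with 0 of 6 called by limma, 3 lower at an unadjusted p under 0.05, 1 lower with voom and a median log2 fold change of -0.65. Their part in the Sox18 and Sox17 values was not tested. Sox8, the relative of Sox9 that is also made in the ureteric tips, measured 0.192 and 0.160 FPKM in WT against 1.26 and 0.884 FPKM in ADPKD (log2 fold change 0.81, SE 0.20, adjusted p = 0.0641). It was called with voom on recovered reads (2.52, adjusted p = 0.0333). Its WT mean of 0.176 FPKM was under the filter, which Sox8 reached only through ADPKD. Sox12, the remaining close relative of Sox4 and Sox11, measured 5.23 and 5.45 FPKM in WT against 7.57 and 5.83 FPKM in ADPKD (log2 fold change 0.27, adjusted p = 0.353).

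**Figure D4:**
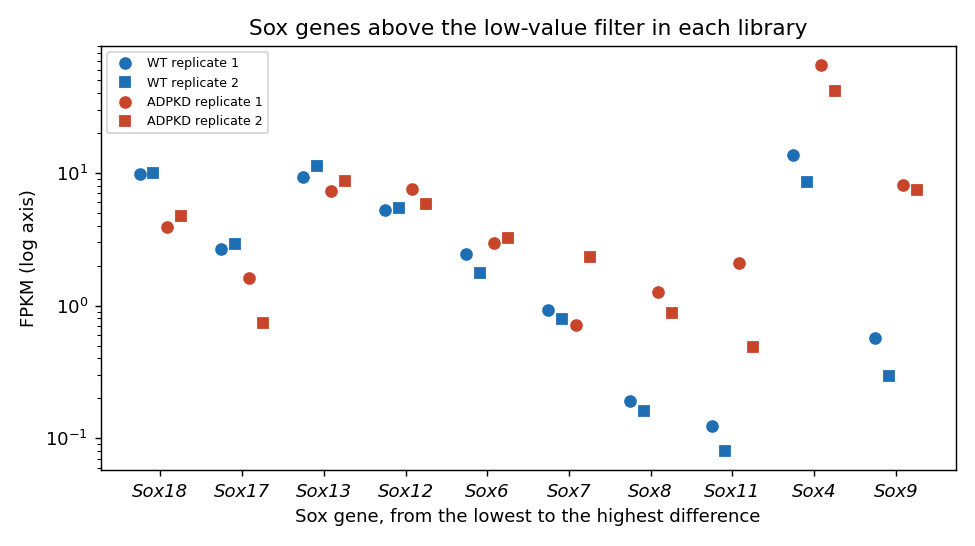
FPKM of the 10 Sox genes above the low-value filter in each library, on a log axis, from the lowest to the highest ADPKD over WT difference. Sox18 is lower in ADPKD, at 3.92 and 4.76 against 9.74 and 9.98 FPKM, while Sox4 and Sox9 are higher in both ADPKD libraries.

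Regulators of the ureteric bud and collecting system, the embryonic setting of Sox9, gave 6 calls. Of 19 genes 18 were tested, and 6 rose, 0 fell and 12 were not called, beside 9.43% of all genes that rose. Those that rose were Elf3, Spry1, Etv4, Wnt7b, Grhl2 and Tfap2a. Among the uncalled, Foxi1 (-0.61, adjusted p = 0.377) and Wnt9b (-0.39, adjusted p = 0.511) had negative values. So did Tfap2b (-0.25), Wnt11 (-0.24), Gfra1 (-0.24), Gata2 (-0.22) and Elf5 (-0.06), and the remaining uncalled genes had positive values. Of the list 0 were lower at an unadjusted p under 0.05. The median log2 fold change was 0.50. Elf3, an epithelial ETS factor, measured 15.9 and 14.9 FPKM in WT against 73.8 and 77.9 FPKM in ADPKD (log2 fold change 2.23, SE 0.14, adjusted p = 0.016). Spry1, a feedback inhibitor of receptor tyrosine kinase signalling, measured 5.05 and 6.54 FPKM in WT against 27.9 and 39.6 FPKM in ADPKD (2.34, SE 0.24, adjusted p = 0.0197). Etv4, an ETS factor that acts downstream of Ret in bud tips, measured 0.631 and 0.251 FPKM in WT against 3.66 and 3.29 FPKM in ADPKD (1.65, SE 0.21, adjusted p = 0.0246). The WT mean of Etv4, 0.441 FPKM, was under the filter, which Etv4 reached only through ADPKD. The number that rose thus includes a gene admitted by being high there. Ret itself was under the filter. The number that rose was 3 without WT replicate 1, 2 without WT replicate 2, 2 without ADPKD replicate 1 and 0 without ADPKD replicate 2.

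Among other genes of nephron progenitors and early nephrons, 8.33% of those tested were called, against 14.2% of all genes tested, and this difference was not tested. Of 34 listed 31 were in the table and 24 were tested, of which Cdh6 and Jag1 rose and 0 fell, with a median of 0.04 and with 4 higher and 2 lower at an unadjusted p under 0.05. Cdh6, a cadherin of the early proximal segment, measured 1.55 and 1.24 FPKM in WT against 9.56 and 8.11 FPKM in ADPKD (2.04, SE 0.18, adjusted p = 0.0177). Cdh6 is also on the list of injured tubule genes given below and is counted among those that rose there. Jag1, a Notch ligand of the nascent nephron, measured 4.22 and 3.37 FPKM in WT against 13.1 and 9.25 FPKM in ADPKD (1.33, SE 0.23, adjusted p = 0.0339). Mycn, which sustains progenitor growth, did not pass the test (1.05, SE 0.24, adjusted p = 0.0555). It was called with a pseudocount of 0.1 (1.52, adjusted p = 0.0479), with voom on recovered reads (adjusted p = 0.0466) and with a mean of at least 30 reads (0.0428). Without WT replicate 1 the number that rose was 1 (Cdh6), and without each of the other libraries it was 0.

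Of 17 stromal progenitor and mesenchyme regulators 14 were tested and 1 rose, beside 9.43% of all genes that rose. That gene was Aldh1a2, an enzyme that makes retinoic acid. It measured 1.99 and 0.761 FPKM in WT against 14.6 and 14.2 FPKM in ADPKD (2.74, SE 0.29, adjusted p = 0.0207), and its call was lost without either ADPKD replicate. Twist1 (1.13, SE 0.30, adjusted p = 0.0758) and Snai1 (0.82, SE 0.30, adjusted p = 0.132) did not pass the test. The median of the list was 0.09.

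Of the tested cofactors of the members 0% were called, and of the tested targets of Pax2 or Pax8 14.3%, against 14.2% of all genes tested. These shares were not compared by a test. Of 22 cofactors 19 were tested and 0 were called by limma, with a median of 0.22. At an unadjusted p under 0.05, 4 were higher and 0 lower, and voom on recovered reads called 2 higher. The chromatin remodeller Chd4 (0.59, adjusted p = 0.0556), the histone-binding Rbbp7 (0.63, 0.0597) and Mta2 (0.53, 0.0812), which belong to the repressor complex that Sall1 recruits, had the smallest adjusted p. Of 10 genes known as targets of Pax2 or Pax8, 7 were tested and Slc14a2, the urea transporter gene of the inner medulla, rose. It measured 19.6 and 11.2 FPKM in WT against 113 and 250.5 FPKM in ADPKD replicates 1 and 2 (3.41, SE 0.47, adjusted p = 0.0265). Lhx1, itself a known target, and Aqp3, a water channel gene of principal cells (-0.60, adjusted p = 0.103), were next and did not pass. The median of the list was -0.01. Of 11 cartilage targets of Sox9 only Sox6 passed the filter, at 2.45 and 1.77 FPKM in WT and 2.95 and 3.25 FPKM in ADPKD (0.41, SE 0.19, adjusted p = 0.217). Col11a1, a fibrillar collagen gene of that list, was under the filter and not tested, with 3 and 5 reads in WT against 84 and 197 reads in ADPKD, or 0.0128, 0.0218, 0.355 and 0.775 FPKM.

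Sox9 and Sox4 rose in libraries that also held more RNA of injured tubule epithelium, fibroblasts and macrophages. Of all genes tested 9.43% rose and 4.78% fell, to be read beside each count here. Of 16 injured tubule genes 13 rose and 0 fell, with a median of 1.88, and Lcn2, Havcr1 and Dcdc2a had the smallest adjusted p. Among the uncalled, Itgb8 had a negative value (-0.80, adjusted p = 0.145), while Prom1 (1.38, 0.0728) and Itgb6 (0.45, 0.206) had positive values. Lcn2, a secreted iron-binding protein of injured tubules, was at 1.87 and 1.82 FPKM in WT against 354 and 408 FPKM in ADPKD. Havcr1, a membrane protein of injured proximal tubule, was at 0.235 and 0.529 FPKM in WT against 84.5 and 65.5 FPKM in ADPKD. Its WT mean of 0.382 FPKM was under the filter, so Havcr1 was admitted to this count by being high in ADPKD. Dcdc2a measured 1.51 and 1.71 FPKM in WT against 19.1 and 17.5 FPKM in ADPKD. Of 6 fibroblast markers 4 rose (Col1a1, Col1a2, Col3a1 and Dcn), with sums of 67.3 and 69.2 FPKM in WT and 322 and 239 FPKM in ADPKD. Of 6 macrophage markers 5 rose (Lyz2, Adgre1, Cd68, C1qa and C1qb), with sums of 49.8 and 84.8 FPKM in WT and 502 and 1132 FPKM in ADPKD. Of 5 markers of cycling cells 0 were called by limma or voom and 0 had an unadjusted p under 0.05, with sums of 11.6 and 6.21 FPKM in WT and 15.1 and 9.44 FPKM in ADPKD. The 4 principal cell markers summed to 574 and 407 FPKM in WT and 443 and 468 FPKM in ADPKD, with 0 of 3 tested called by limma or voom and 1 lower at an unadjusted p under 0.05. Of the intercalated cell markers 1 of 3 fell (Slc4a1), 2 were called lower with voom and 3 were lower at an unadjusted p under 0.05. They summed to 89.6 and 69.9 FPKM in WT and 33.2 and 14.2 FPKM in ADPKD, with a median log2 fold change of -2.32. Of 4 podocyte markers 0 were called by limma or voom, with 1 lower at an unadjusted p under 0.05. The 1 tested marker each of T cells, glia and adrenal was not called. The part of these cell types in the Sox9 and Sox4 values was not tested.

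**Figure D5:**
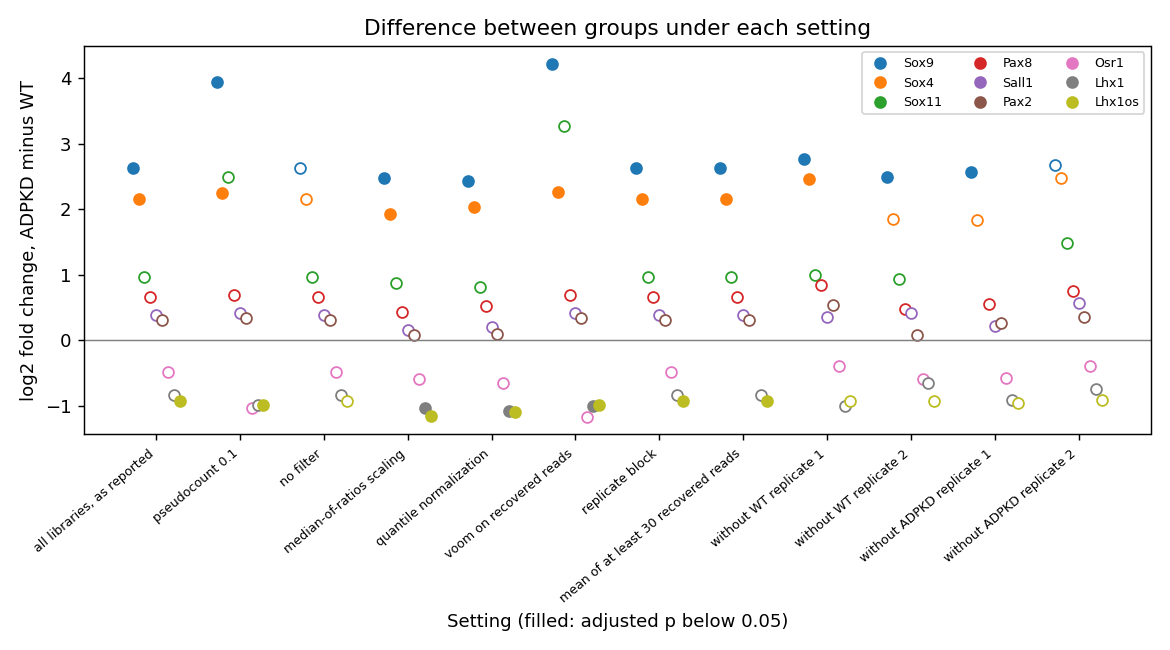
Log2 fold change of the 8 tested members and Lhx1os with all libraries and under 11 alternatives; filled points had an adjusted p below 0.05. Sox9 stays between 2.43 and 4.22 and Sox4 between 1.84 and 2.47, and no member changes side of 0.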

How the data were processed

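The libraries were made by the submitters from TRIzol-extracted RNA, per the labels' protocols. Bowtie2, DESeq2 and the mm10 build are named in the submitters' processing notes, without versions or roles. Per the file headers, featureCounts 1.6.0 assigned reads to genes by name over exons of Ensembl GRCm38 release 98, counting multi-mapping reads and setting neither strandedness nor read pairing. Values analysed were FPKM per gene as the authors deposited them, with exon lengths and positions from their gene table. The 16 per-sample columns of that table are named for 8 libraries, could not be matched to the 4 samples by name, and were not used. Rows whose names had become dates (25) were left out, leaving 32151 genes.

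Reads were recovered as FPKM times exon length times the library's assigned reads, which were found from the steps between low values, and 100.0% of nonzero values were whole within 0.01 reads. Floors of 3 reads cover counting error only. Genes with a mean of at least 0.5 FPKM were tested on log2(FPKM + 1) with the intensity-trend option of limma 3.58.1 in R 4.3.3. The 2 residual degrees of freedom were joined by 2.55 from the prior, and 95% intervals use both. P-values were adjusted over all 17001 genes. The procedure was tested on simulated data, after which an alternative with a mean of at least 30 reads was added. Alternatives changed the pseudocount, filter, scaling, model or replicate block, or left out 1 library.

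The members and lists were chosen with earlier results of these data known. Named were all members, the 3 genes of each biology list with the smallest adjusted p, genes in counts of 5 or fewer, genes within 20 kb of a member, and the 3 nearest profiles of each called member. Further genes (Sox12, Sox15, Wnt4, Wnt9b, Foxi1, Tfap2b, Wnt11, Gfra1, Gata2, Elf5, Itgb8, Itgb6, Prom1, Col11a1, Umod, Cldn16, Trpm6, Krt5, Upk1a, Upk1b, Upk2, Upk3a, Adipoq, Ret, Xist, Ddx3y, Grhl2, Wnt7b and Tfap2a) were chosen after their values were seen. Promoter windows came from RefSeq (GRCm38.p6), whose positions share the build of the files.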

Additional observations from a re-analysis of the deposited data

How the results depend on the processing

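No member changed direction in 97 values recomputed for the 8 tested members and Lhx1os under 11 alternatives. Across all genes 2417 calls became 1 with no filter and 0 to 574 with 1 library left out. The number of members that rose was 0 with no filter and 0 to 2 with 1 library left out. The number that fell was 1 (Lhx1) with median-of-ratios scaling, 1 with quantile normalization and 1 with voom on recovered reads, against 0. With no filter 0 progenitor genes, 0 stromal genes and 0 ureteric genes rose and 0 paralogs fell. With 1 library left out, progenitor genes that rose numbered 0 to 1 and those that fell 0 to 1 (Irx1, without WT replicate 1). Stromal genes that rose numbered 0 to 1, ureteric genes 0 to 3, and paralogs that fell 0. With a mean of at least 30 reads 1 progenitor gene (Tmem100) fell and 1 paralog (Sox8) rose, and Osr1 was under the filter. With voom on recovered reads 1 paralog (Sox8) rose, and with quantile normalization 2 paralogs (Sox18 and Sox17) fell. Causes of these shifts were not tested, except that with no filter 32151 genes were tested in place of 17001 and a left-out library leaves 1 residual degree of freedom, the lone sample being assumed to vary like the other group.

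Replicate numbers in the labels are not said to pair animals, and same-numbered libraries had deviations correlated across genes at 0.188. With the replicate block 1845 genes were called, and Sox9 and Sox4 both had a limma adjusted p of 0.0406. Wnt4 was called under that block (adjusted p = 0.0464) and not without it. Depth limits Six2, Cited1 and Osr1, and in WT also Sox9 and Sox11, which rest on few reads.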

Other observations

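Sox15, a paralog below the filter, was chosen after its values were seen and was highest in ADPKD replicate 1. For Sox15 that library gave 1.38 FPKM, while the other 3 gave 0.0582 to 0.190 FPKM. The same library held the highest Krt5 and Adipoq values.

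The Wnt4 gene, a signal for nephron formation that Pax2 is known to regulate, differed widely between replicates. It measured 6.38 and 0.901 FPKM in WT replicates 1 and 2 against 14.7 and 4.24 FPKM in ADPKD replicates 1 and 2 (log2 fold change 1.28, SE 0.85, limma adjusted p = 0.349).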
